A study of Homo sapiens with 6 samples.

Results

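The 45 genes described here encode the enzymes that make and use glutathione and the thioredoxin and peroxiredoxin system. They also encode the superoxide dismutases and catalase, NADPH-producing and pentose phosphate enzymes, and the NRF2 regulator with its inhibitor. They were taken by gene name from a deposited RNA sequencing table of 19937 gene rows, in which all 45 were found. The table holds 6 libraries from the neuroblastoma line SK-N-BE(2), an established human line, of which 3 are titled sgcon and 3 are titled sgGPR91. GPR91 is the succinate receptor, encoded by SUCNR1, and the design text of the series describes its knockout in this line. Every library, controls included, came from drug-treated cells. Treatment lasted 48 hours, but the dose is labelled inconsistently, with doxorubicin 100 nmol/L in one place and DOX 1.5 µg/ml elsewhere. The genotype tags contradict the titles: sgcon carries the knockout tag and sgGPR91 the control tag. The titles were followed, so each direction below is the level in libraries labelled sgGPR91 relative to libraries labelled sgcon, and every direction reverses if the tags are the correct ones. The labels do not say whether a group was a clone or a pool of cells, nor whether its replicates were separate cultures. The p-values therefore rest on library-to-library spread alone, possibly technical.

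Glutathione is a tripeptide that carries reducing power in the cell. Glutamate-cysteine ligase makes its first bond, glutathione peroxidases spend it on peroxides, transferases attach it to reactive compounds, and glutathione reductase restores it with NADPH. Thioredoxin works in parallel, being oxidised by peroxiredoxins as they remove hydrogen peroxide and reduced again by thioredoxin reductase, also with NADPH. NRF2, encoded by NFE2L2, is a transcription factor that KEAP1 marks for degradation and that binds antioxidant response elements near many of these genes. Anthracyclines such as doxorubicin can cycle through reduced forms that produce superoxide, which is why these enzymes are often followed in treated tumour cells.

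The libraries held from 7070189 to 10252425 counts. SUCNR1 had 1, 0 and 2 reads in sgcon replicates 1, 2 and 3 and 1, 0 and 0 reads in the sgGPR91 replicates, so its level did not show which label was right. The neuroblastoma identity was checked with 10 adrenergic marker genes, all of them detected, whose summed level ran from 3058 to 3571 CPM in sgcon (reads scaled to a common library size) and from 2416 to 2484 CPM in sgGPR91. Of these 10, 8 were lower and 1 was higher in sgGPR91 (edgeR adjusted p under 0.05). Over all genes tested, 21.0% were lower and 20.2% higher. Of 6 blood and immune markers 3 had no read, and the summed level of the list was at most 3.41 CPM in any library. A mesenchymal and Schwann list of 10 genes, of which 2 were higher and 3 lower, summed to 476.5 to 518.6 CPM in sgcon and 393.5 to 403.8 CPM in sgGPR91, and 5 epithelial genes to 12.0 to 16.8 CPM and 7.26 to 9.09 CPM. In bulk RNA, fewer cells of a type and less RNA per cell cannot be told apart. The part of these shifts in the results below was not tested.

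More members were higher than lower in sgGPR91. Of the 45, 17 were called higher, 2 were called lower, 22 were tested and not called, and 4 had too few reads to be tested. A call is an edgeR quasi-likelihood Benjamini-Hochberg adjusted p under 0.05 over all 12701 genes tested. Among all genes tested, 20.2% were called higher and 21.0% lower, 41.1% together. Of the 41 members tested, 5 were called with at least a 1.5-fold difference, against 16.1% of all genes. The median member log2 fold change was 0.22, beside -0.01 over all genes tested. The members were chosen with earlier results of these data known, so these shares and medians describe them and do not test them. In 19 tested members every sgGPR91 library lay above every sgcon library, an arrangement found for 25.7% of all genes tested, and in 2 every sgGPR91 library lay below, found for 25.2%. The differences were modest: the largest rise was 1.92-fold, in IDH1, and the largest fall was 1.76-fold, in GSTM2.

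**Figure D1:**
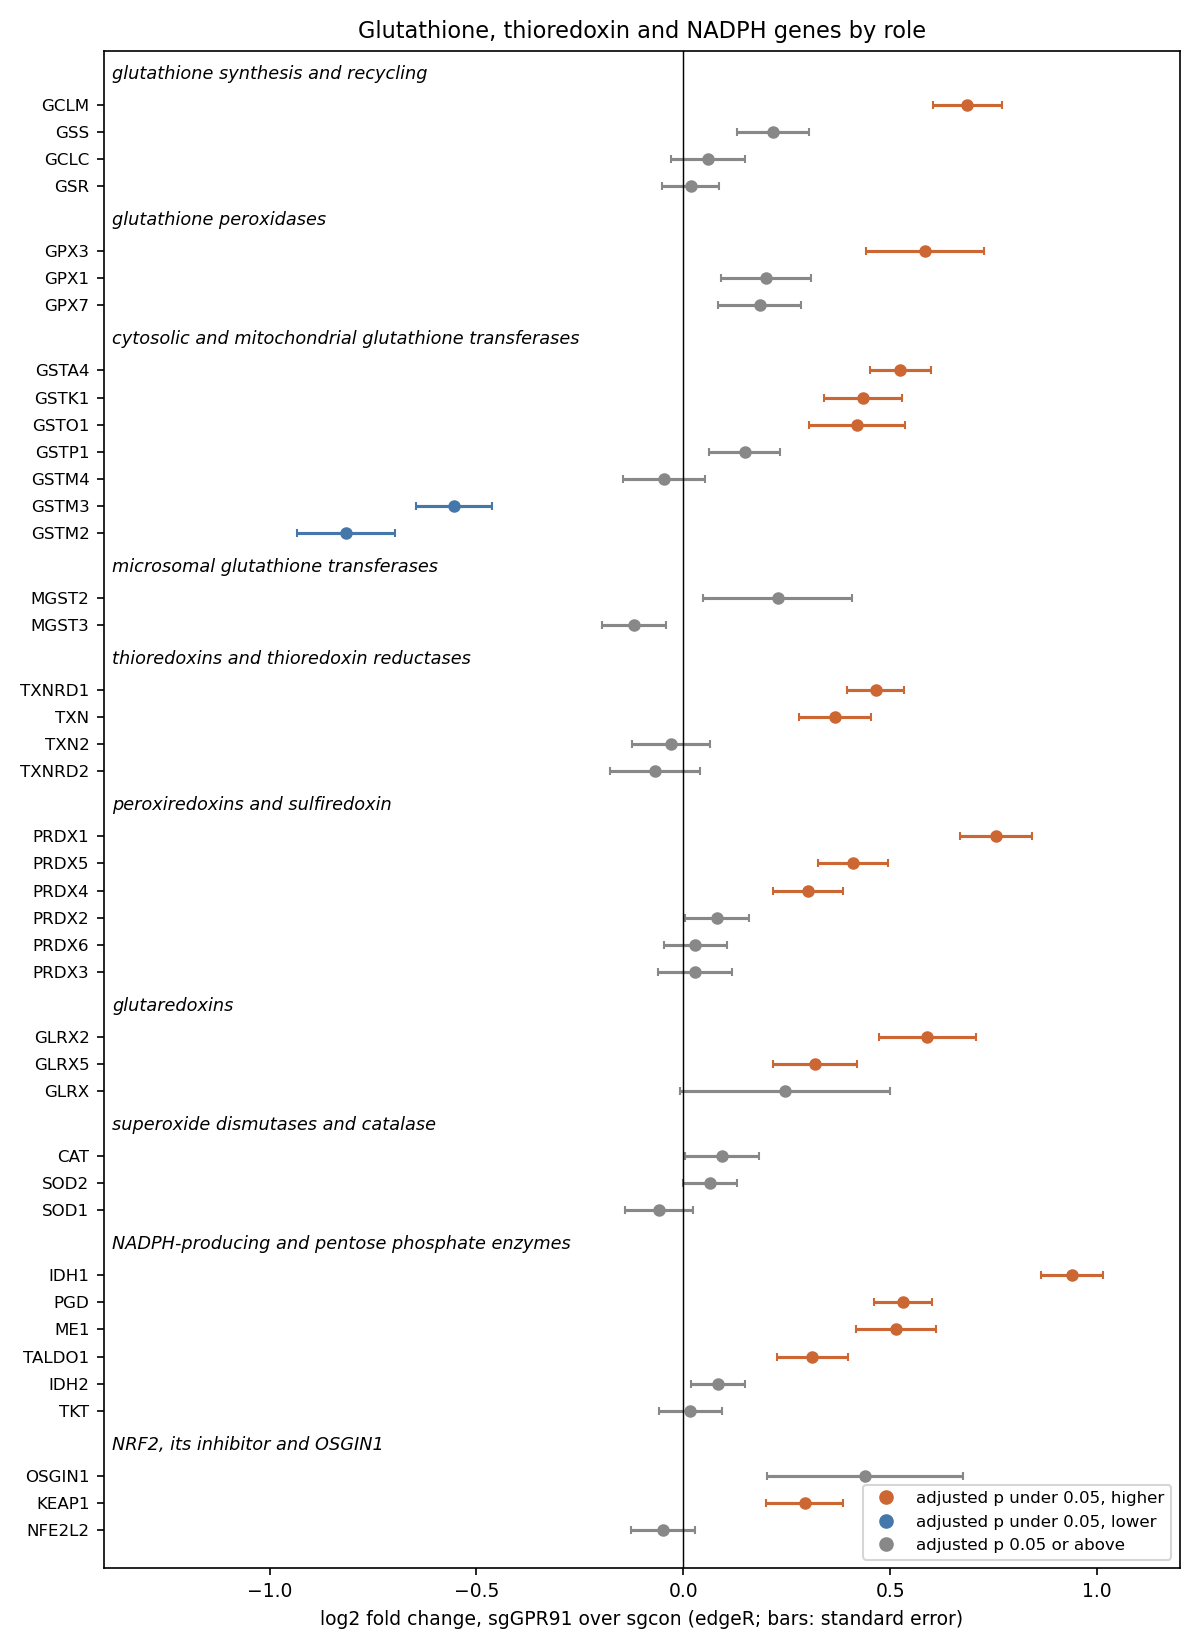
Log2 fold change of each tested member, sgGPR91 over sgcon, with its standard error, grouped by role (horizontal axis: log2 fold change from edgeR; 3 libraries per group). The 17 members called higher lie between 0.29 and 0.94, and the 2 called lower, GSTM3 and GSTM2, at -0.55 and -0.82.

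The libraries of a group were not equally close for these genes. Relative to the sgcon mean, the median level of the 41 tested members was 0.08, 0.01 and -0.11 log2 in sgcon replicates 1, 2 and 3 and 0.28, 0.19 and 0.17 in the sgGPR91 replicates. The groups did not overlap in this median, but sgcon replicate 3 was the lowest of the sgcon libraries in 27 of 41 members, against 38.6% of all genes. Without sgcon replicate 3 the count was 17 higher and 3 lower and the median log2 fold change fell to 0.14; 16 of the 17 genes were shared, GLRX5 was lost and GSS was gained.

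Glutathione synthesis changed at 1 subunit. GCLM, the modifier subunit of glutamate-cysteine ligase (ENSG00000023909, chr1:93885199-93909456 as the deposited table lists it), stood at 40.8, 44.3 and 43.7 CPM in sgcon and at 69.5, 64.4 and 73.5 CPM in sgGPR91. Every sgGPR91 library was above every sgcon library, with a log2 fold change of 0.69 ± 0.08 (SE), or 1.61-fold, and an edgeR adjusted p of 8.075e-06. GCLC, the catalytic subunit (ENSG00000001084, chr6:53497341-53616970), was at 49.0, 58.5 and 50.8 CPM and at 52.1, 56.4 and 56.8 CPM. Those ranges overlapped, and GCLC was not called (log2 fold change 0.06 ± 0.09, edgeR adjusted p = 0.6255). Within each library the GCLM to GCLC ratio of deposited FPKM, a level per kilobase of listed gene length, was 1.324, 1.204 and 1.367 in sgcon and 2.12, 1.81 and 2.06 in sgGPR91. The ratio was higher in 3 of 3 sgGPR91 libraries than in any sgcon library (two-sided exact permutation p = 0.1, the smallest that 3 libraries against 3 allow; 0.114 adjusted over the 8 ratios computed).

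The enzymes that follow the ligase were not called. GSS, glutathione synthetase, was at 51.1 ± 1.45 CPM in sgcon and 59.3 ± 5.37 CPM in sgGPR91 (SD, n = 3 per group), with groups that did not overlap and an edgeR adjusted p of 0.05617, just outside the threshold. GSR, the reductase, was at 132.0 ± 3.49 and 133.6 ± 7.59 CPM and was not called. By FPKM, GSR was the most abundant of these 4 transcripts, with 62.2% ± 0.682 of their summed level in sgcon and 56.3% ± 1.37 in sgGPR91.

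The antioxidant response element core, which NRF2 binds, was looked for in the promoters. The letters searched were TGACNNNGC on either strand, in RefSeq promoters on GRCh38.p14 that run from 250 bases before to 50 after a gene's start. The table held 52 such promoters for 38 of the members; those with no entry were PRDX1, GSS, GSR, SOD1, TXN2, PRDX6 and MGST2. Of all 35116 promoters listed, 13.3% held a match, and of the 52 member promoters 21.2% did. Split by call, a match was in 9 of 22 promoters of members that were higher, in 1 of 22 of those tested and not called, and in 0 of 2 of those that were lower. Over all genes, a match was in 14.9% of the promoters of genes called higher and in 14.3% of those of genes tested. The split by call was not planned and was not tested. The matches are of letters, not of measured binding, and genes with several listed starts had more than 1 promoter searched. Shown are the 4 called members with the largest fold changes among those with an entry and a match, then ME1 and GSTP1. Both were added after their values were seen because the matches shown read the same, TGACTCAGC, while ME1 was called and GSTP1 was not. Each sequence runs 5′ to 3′ on the gene's strand and ends before the start site, with the match in capitals; where the element lies on the other strand it reads from right to left in the complement, as in GCLM.
IDH1 (chr2:208255156-208255264, minus strand): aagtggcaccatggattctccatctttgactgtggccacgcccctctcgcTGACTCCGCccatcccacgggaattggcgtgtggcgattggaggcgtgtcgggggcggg
GCLM (chr1:93909431-93909514, minus strand): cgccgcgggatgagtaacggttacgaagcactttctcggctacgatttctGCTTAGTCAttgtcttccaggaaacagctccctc
PGD (chr1:10398814-10398921, plus strand): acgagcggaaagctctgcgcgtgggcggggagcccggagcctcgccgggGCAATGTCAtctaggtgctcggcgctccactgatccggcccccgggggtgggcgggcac
GSTA4 (chr6:52995285-52995343, minus strand): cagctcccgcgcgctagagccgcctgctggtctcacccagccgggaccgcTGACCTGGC
ME1 (chr6:83431130-83431238, minus strand): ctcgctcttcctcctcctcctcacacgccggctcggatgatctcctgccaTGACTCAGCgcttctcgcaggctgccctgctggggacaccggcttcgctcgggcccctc
GSTP1 (chr11:67583696-67583804, plus strand): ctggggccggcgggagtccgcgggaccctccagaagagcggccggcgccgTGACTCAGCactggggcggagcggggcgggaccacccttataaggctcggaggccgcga
Counted from the start site, with -1 the base before it, the match spans -143 to -135 in IDH1, -34 to -26 in GCLM, -201 to -193 in PGD, -9 to -1 in GSTA4, -137 to -129 in ME1 and -66 to -58 in GSTP1. ME1 held a further match, TGACGGTGC, at 12 to 20 after the start site, which is not shown. GSTP1 held no further match, so the promoters of ME1 and GSTP1 were not alike in their matches. The other members with a match were GSTO1, TXNRD1 and KEAP1, all called higher, and MGST1, which was not tested. The element of GCLM, TGACTAAGC read on its own strand, occurred with the same letters in a KEAP1 promoter.

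Glutathione peroxidases differed from each other in abundance more than between groups. GPX1, the ubiquitous selenium-dependent enzyme, was the most abundant with 34.6 ± 4.30 and 40.2 ± 3.52 FPKM in sgcon and sgGPR91, and GPX7, a peroxidase of the endoplasmic reticulum, followed with 24.5 ± 1.66 and 28.1 ± 2.89 FPKM. Neither was called, although without sgcon replicate 1 GPX1 was (edgeR adjusted p = 0.04705). GPX3, the secreted peroxidase (ENSG00000211445, chr5:151020438-151028992), was the called member of the family. It was at 13.1, 11.2 and 10.1 CPM in sgcon and at 17.5, 16.8 and 17.5 CPM in sgGPR91, with no overlap, a log2 fold change of 0.58 ± 0.14 and an edgeR adjusted p of 0.003703. GPX8, another peroxidase of the endoplasmic reticulum, had 0 reads in the sgcon libraries and 2 in those of sgGPR91 and was not tested.

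The glutathione transferases held the opposite changes within 1 family. GSTM2 and GSTM3, mu-class enzymes from a gene cluster on chromosome 1, were the 2 members called lower. GSTM2 (ENSG00000213366, chr1:109668022-109709551) went from 28.9, 30.2 and 36.1 CPM in sgcon to 16.8, 18.4 and 18.6 CPM in sgGPR91, a log2 fold change of -0.82 ± 0.12 with an edgeR adjusted p of 4.662e-05. Its highest sgGPR91 library was below its lowest sgcon library. GSTM3 (chr1:109733932-109741038) went from 64.1, 55.2 and 56.9 CPM to 38.9, 43.2 and 37.9 CPM, also without overlap (log2 fold change -0.55 ± 0.09, edgeR adjusted p = 0.0001509). GSTM4, of the same class and cluster, was at 32.0 ± 2.44 and 31.1 ± 0.480 CPM and was not called. The GSTM2 to GSTM4 ratio of FPKM was 0.525, 0.595 and 0.763 in sgcon and 0.346, 0.369 and 0.373 in sgGPR91, a ratio chosen after the values were seen and given with no p-value. Mu-class genes are close copies, the listed spans of GSTM2 and GSTM4 share 6815 bases on the same strand, and GSTM5 covers the GSTM3 span on the other strand with 15 and 7 reads in the groups, so the split of reads among them is uncertain. The 66 tested genes within 5 Mb of GSTM2 had a median log2 fold change of 0.09.

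Transferases outside the mu class were higher or did not pass. GSTA4, an alpha-class enzyme that conjugates the lipid aldehyde 4-hydroxynonenal, rose from 66.6 ± 2.63 to 95.8 ± 3.16 CPM. GSTK1, found in mitochondria and peroxisomes, rose from 37.1 ± 3.94 to 50.4 ± 1.67 CPM, and GSTO1, an omega-class enzyme, from 35.8 ± 6.59 to 48.2 ± 2.69 CPM. In all 3 every sgGPR91 library lay above every sgcon library, an arrangement found for 25.7% of all genes tested. Of the 7 cytosolic and mitochondrial transferases, mu class included, 3 were called higher and 2 lower, beside 20.2% and 21.0% of all genes. GSTO1 was at 39.4, 39.8 and 28.2 CPM in the sgcon libraries, with replicate 3 low, and without that library its log2 fold change was 0.29 in place of 0.42, still called (edgeR adjusted p = 0.01692). GSTP1, the pi-class enzyme often abundant in tumours, supplied 74.5% ± 0.884 of the summed FPKM of these 7 transferases in sgcon and 72.6% ± 1.40 in sgGPR91. Its level was 242.8 ± 22.7 and 271.0 ± 18.9 FPKM, the highest of all 45 members, and it was not called (edgeR adjusted p = 0.186).

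Microsomal transferases, membrane enzymes, gave no call. MGST3 was the most abundant, at 11.4 ± 0.749 and 10.6 ± 0.0518 FPKM. MGST2 was at 8.95, 8.31 and 6.94 CPM in sgcon and 10.2, 8.23 and 10.03 CPM in sgGPR91, ranges that overlapped. It was the one member in a neighbourhood shifted by more than 0.3: the 20 other tested genes within 5 Mb on chromosome 4 had a median log2 fold change of -0.43, and 65.0% of them were called lower. The MGST2 span also overlaps 23993 bases of MAML3 on the other strand. MGST1 had 1, 6 and 0 reads in sgcon and 9, 8 and 8 in sgGPR91, a ratio of read shares of 3.70 with a 95% exact binomial interval of 1.56 to 10.1 that covers counting error only. It was under the count filter, and with no filter its edgeR adjusted p was 0.06059.

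**Figure D2:**
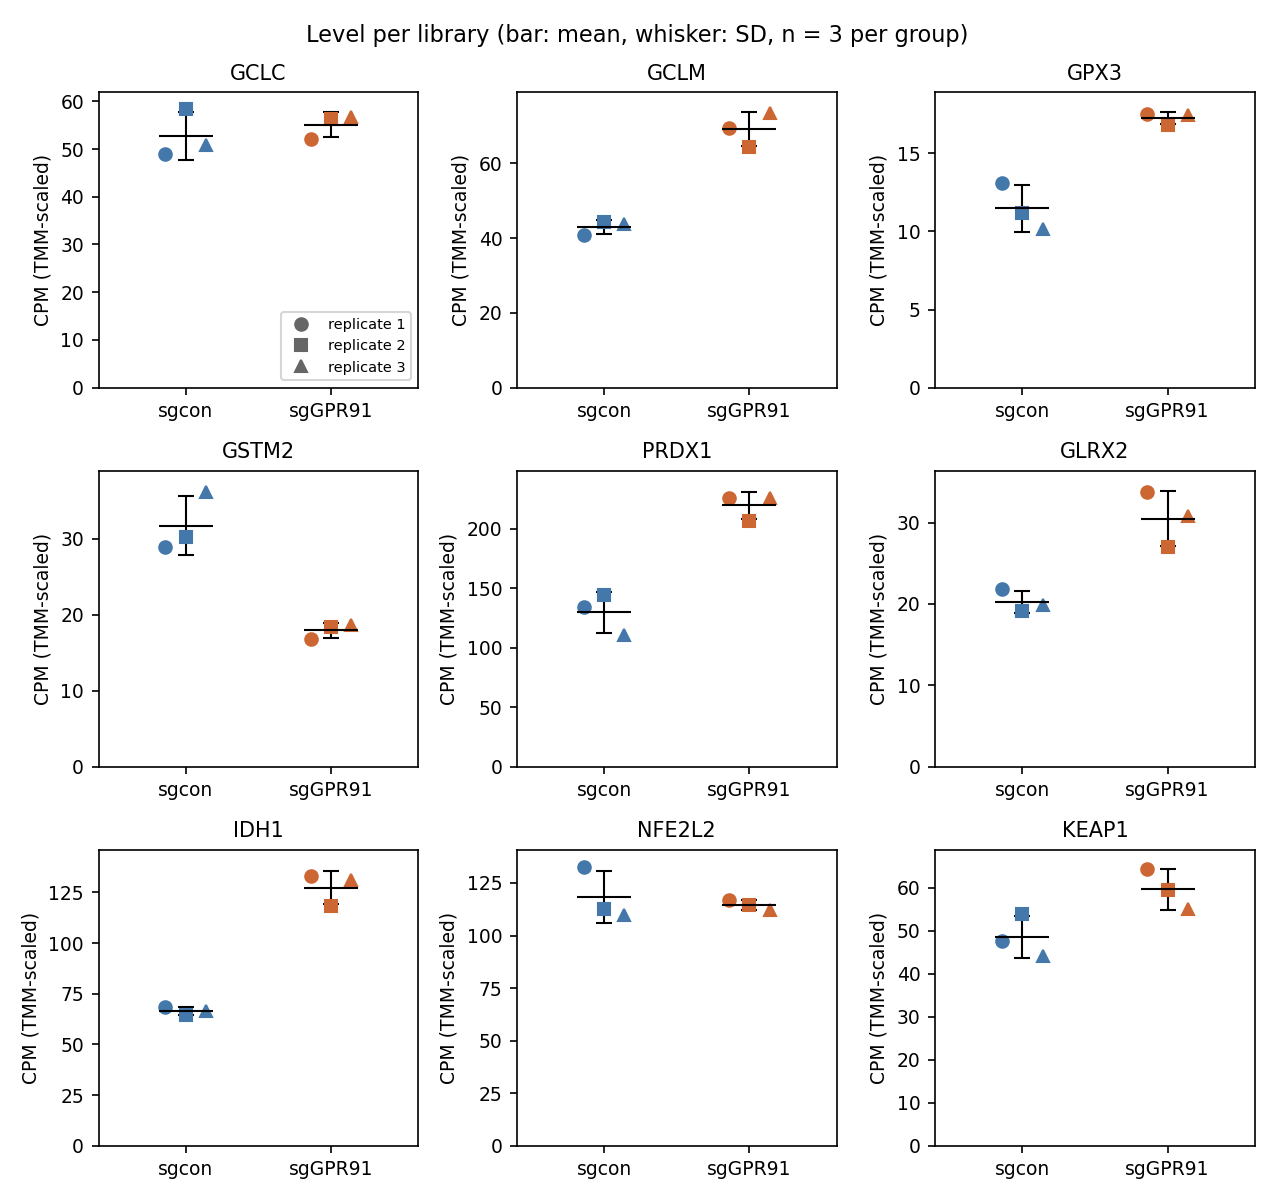
Level in each library of 9 members (vertical axis: TMM-scaled CPM from 0; points: libraries, shaped by replicate; bar and whisker: mean and SD, n = 3 per group). GCLM, GPX3, PRDX1, GLRX2, IDH1 and KEAP1 lie higher in every sgGPR91 library, GSTM2 lies lower, and the groups overlap in GCLC and NFE2L2.

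Of the thioredoxin genes, the cytosolic pair was higher and the mitochondrial pair was not called. TXN, cytosolic thioredoxin, rose 1.29-fold from 106.4 ± 11.6 to 137.4 ± 12.3 CPM, and TXNRD1, its selenium-containing reductase, rose 1.38-fold from 345.6 ± 1.97 to 476.9 ± 25.8 CPM (edgeR adjusted p = 0.003092 and 5.419e-05). TXN2 was at 51.9 ± 6.52 and 50.9 ± 1.01 CPM and TXNRD2 at 26.8 ± 2.00 and 25.5 ± 1.77 CPM. Of the 8 ratios in the text, 5 were chosen after the values were seen, each setting a called member over one not called. They restate those differences and are given with no p-value: TXN to TXN2, TXNRD1 to TXNRD2, PRDX1 to PRDX3, IDH1 to IDH2 and GSTM2 to GSTM4. The TXN to TXN2 ratio of FPKM was 3.17, 3.60 and 3.31 in sgcon and 4.76, 4.17 and 4.29 in sgGPR91, and the TXNRD1 to TXNRD2 ratio was 16.9, 16.04 and 14.5 against 22.4, 20.7 and 25.8. Neither ratio overlapped between groups. The TXNRD1 to TXN ratio, reductase over substrate, did overlap, at 0.493 ± 0.0543 and 0.524 ± 0.0355 (exact permutation p = 0.4). TXNRD1 shares 1467 bases of its span with EID3 on the same strand, which had 47 and 29 reads in the groups.

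The peroxiredoxins rose in 3 of the 6 tested members, beside 20.2% of all genes called higher. PRDX1, a cytosolic peroxide scavenger (ENSG00000117450, chr1:45510914-45542732), was at 133.9, 144.4 and 110.6 CPM in sgcon and at 226.0, 206.7 and 226.1 CPM in sgGPR91. The groups were far apart, with a log2 fold change of 0.76 ± 0.09, or 1.69-fold, and an edgeR adjusted p of 4.275e-06. PRDX5, present in mitochondria, peroxisomes and cytosol, rose from 81.2 ± 9.18 to 108.3 ± 5.75 CPM, and PRDX4, the enzyme of the endoplasmic reticulum, from 83.4 ± 7.71 to 102.9 ± 8.04 CPM. Leaving out sgGPR91 replicate 1 ended the call of PRDX4 (edgeR adjusted p = 0.0636). PRDX2, a second cytosolic enzyme, PRDX3, the mitochondrial one, and PRDX6, which uses glutathione in place of thioredoxin, were not called, with log2 fold changes of 0.08 ± 0.08, 0.03 ± 0.09 and 0.03 ± 0.08. The PRDX2 span lies inside HOOK2 on the same strand, which had 1178 and 1004 reads in the groups.

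The order of the peroxiredoxins by abundance differed between groups. By FPKM the order in sgcon was PRDX6, PRDX5, PRDX1, PRDX2, then PRDX3 and PRDX4, which lay within their spread of each other at 45.7 ± 5.76 and 44.7 ± 3.29. In sgGPR91 PRDX1 was at 130.8 ± 6.06 and PRDX5 at 126.1 ± 5.66, within their spread of each other, and PRDX6 followed at 113.4 ± 4.33. PRDX1 made up 17.6%, 18.7% and 17.4% of the summed FPKM in sgcon and 24.1%, 23.9% and 25.7% in sgGPR91. The PRDX1 to PRDX3 ratio, cytosolic over mitochondrial, was 1.65, 1.68 and 1.71 in sgcon and 2.72, 2.65 and 2.98 in sgGPR91. SRXN1, the sulfiredoxin that repairs overoxidised peroxiredoxins, was close to undetected, with 3 reads in each group. Its span shares 6575 bases with ENSG00000270299 on the same strand, which had 0 and 1 reads in the groups, so its read count is uncertain.

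**Figure D3:**
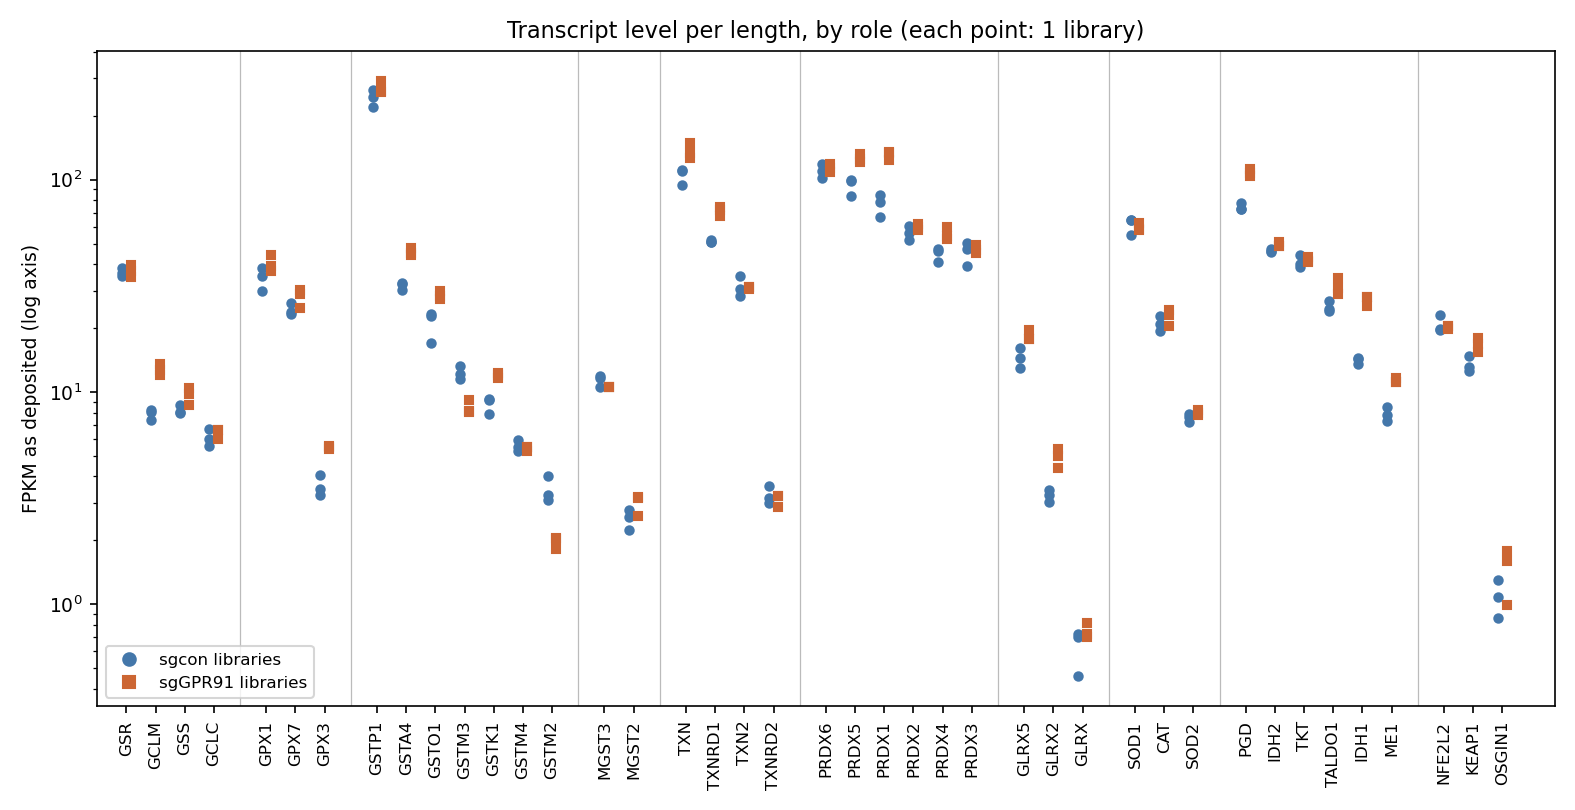
Deposited FPKM of each tested member in each library, grouped by role (vertical axis: FPKM, log scale; blue circles: sgcon; orange squares: sgGPR91). GSTP1 is the most abundant member in every library, and PRDX1 joins PRDX5 at the top of the peroxiredoxins in the sgGPR91 libraries.

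Glutaredoxins, which use glutathione to reduce protein thiols, were higher at 2 of 3 genes, beside 20.2% of all genes called higher. GLRX2, the mitochondrial and nuclear form (ENSG00000023572, chr1:193090866-193106114), was at 21.8, 19.2 and 19.8 CPM in sgcon and at 33.7, 27.0 and 30.8 CPM in sgGPR91, with no overlap and a log2 fold change of 0.59 ± 0.12 (edgeR adjusted p = 0.0007301). GLRX5, the mitochondrial form that serves iron-sulfur cluster assembly, rose from 34.9 ± 4.23 to 43.7 ± 2.42 CPM. The GLRX5 call ended without sgcon replicate 3 or without sgGPR91 replicate 3 (edgeR adjusted p = 0.05558 and 0.09673). GLRX, the cytosolic form, was at 3.93 ± 0.887 and 4.66 ± 0.360 CPM and was not called (log2 fold change 0.25 ± 0.25). Its span lies across RHOBTB3 on the other strand, which had 6267 and 7894 reads.

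Superoxide dismutases and catalase gave no call. SOD1, the cytosolic copper and zinc enzyme, was at 130.1, 129.9 and 106.1 CPM in sgcon and 124.0, 113.4 and 114.8 CPM in sgGPR91, and SOD2, the mitochondrial manganese enzyme, at 138.4 ± 3.83 and 144.7 ± 4.61 CPM. Catalase, CAT, was at 75.5 ± 7.51 and 80.8 ± 7.38 CPM. All 3 overlapped between groups, with log2 fold changes of -0.06 ± 0.08, 0.06 ± 0.07 and 0.09 ± 0.09. Their summed FPKM with SOD3 was 90.1 ± 7.09 and 90.3 ± 3.47, whereas that of the peroxiredoxins with SRXN1 was 427.5 ± 37.0 and 532.9 ± 19.1. SOD3, the secreted dismutase, had 3 reads in sgcon and 8 in sgGPR91 and was not tested.

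NADPH-producing and pentose phosphate enzymes were higher at 4 of 6 genes, beside 20.2% of all genes called higher. IDH1, the cytosolic isocitrate dehydrogenase that reduces NADP (ENSG00000138413, chr2:208236229-208266074), changed most of all members. It stood at 68.5, 64.6 and 66.3 CPM in sgcon and at 132.9, 118.1 and 131.1 CPM in sgGPR91, a log2 fold change of 0.94 ± 0.07 with an edgeR adjusted p of 7.736e-08. The libraries within each group lay close together and the groups were far apart. IDH2, the mitochondrial counterpart, was at 130.0 ± 4.35 and 137.9 ± 4.46 CPM, without overlap but not called (log2 fold change 0.08 ± 0.07). The IDH1 to IDH2 ratio of FPKM was 0.303, 0.292 and 0.314 in sgcon and 0.551, 0.519 and 0.573 in sgGPR91, so IDH2 remained the more abundant transcript in each library.

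The pentose phosphate pathway moved in part. PGD, the phosphogluconate dehydrogenase that makes NADPH in the oxidative branch, rose from 248.4 ± 12.9 to 359.1 ± 16.7 CPM, and TALDO1, transaldolase of the non-oxidative branch, from 73.4 ± 5.37 to 91.2 ± 9.01 CPM. TKT, transketolase of that branch, was at 391.6 ± 35.1 and 396.4 ± 10.7 CPM and was not called. ME1, cytosolic malic enzyme, rose from 26.4 ± 1.59 to 37.6 ± 0.868 CPM. TALDO1 was no longer called once sgGPR91 replicate 1 was left out (edgeR adjusted p = 0.06389). By FPKM, PGD was the most abundant of the 6 genes in both groups, with 35.5% ± 0.0478 of their summed level in sgcon and 40.1% ± 0.356 in sgGPR91. That order depends on the listed gene lengths, 3333 bases for PGD and 9502 for TKT. By CPM, which is not divided by length, TKT was above PGD in both groups.

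Of the regulators, KEAP1 was called and the NRF2 transcript was not. NFE2L2 (ENSG00000116044, chr2:177227595-177392697) was at 132.7, 112.8 and 109.7 CPM in sgcon and at 116.8, 114.7 and 112.0 CPM in sgGPR91. The groups overlapped, with sgcon replicate 1 the highest library, and the log2 fold change was -0.05 ± 0.08 (edgeR adjusted p = 0.6474). KEAP1 (ENSG00000079999, chr19:10486125-10503558), which marks NRF2 for degradation, was at 47.7, 53.8 and 44.1 CPM and at 64.5, 59.5 and 55.0 CPM. Every sgGPR91 library was above every sgcon library, at a log2 fold change of 0.29 ± 0.09 with an edgeR adjusted p of 0.01971. Leaving out sgGPR91 replicate 1 or replicate 2 ended the call of KEAP1 (edgeR adjusted p = 0.1054 and 0.05383). The KEAP1 to NFE2L2 ratio of FPKM was 0.570, 0.757 and 0.638 in sgcon and 0.876, 0.824 and 0.779 in sgGPR91 (two-sided exact permutation p = 0.1, the smallest possible, and 0.114 adjusted over the 8 ratios computed). Transcript levels do not give the amount of NRF2 protein, which is set largely by degradation. OSGIN1, an NRF2-induced growth inhibitor gene, was at 6.15, 4.85 and 7.07 CPM and at 5.56, 8.83 and 9.91 CPM. It was called without sgGPR91 replicate 1, its lowest sgGPR91 library (edgeR adjusted p = 0.04031). Its span shares 20135 bases with MLYCD on the same strand.

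Related genes were read from 8 lists that hold none of the 45. Of 18 tested NRF2 targets outside the members, 15 were higher and 0 lower, beside 20.2% and 21.0% of all genes tested. Their median log2 fold change was 0.59. Among them, NQO1, a quinone reductase, rose from 41.0 ± 2.47 to 127.0 ± 15.3 CPM. AKR1C1 and AKR1C2, which encode aldo-keto reductases, rose 2.96-fold and 7.80-fold, AKR1C2 from 0.905 ± 0.0790 to 7.20 ± 1.92 CPM. Their sequences are very alike, and how reads were divided between them is uncertain. Rises in NRF2 targets were already known from these libraries when the list was written. The 3 not called were ABCC1, BLVRB and FTL, named after their values were seen.

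Among regulators around NRF2, 5 were higher and 2 lower of 20 tested, with a median of 0.10, beside the 41.1% called among all genes. BACH2, a repressor related to BACH1, rose from 5.49 ± 0.906 to 9.05 ± 0.480 CPM, DPP3, which can bind KEAP1, rose 1.30-fold and SYVN1, a ubiquitin ligase of the endoplasmic reticulum, 1.28-fold. The small MAF partners of NRF2 went both ways: MAFF fell 1.46-fold, and MAFG, named after its value was seen, rose from 136.7 ± 9.36 to 169.3 ± 7.06 CPM.

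Genes that bring in or make cysteine and other precursors went both ways, with 2 higher and 5 lower of 12 tested. Among all genes 41.1% were called, and the median log2 fold change of this list was -0.10. SLC7A11, the cystine carrier of system xc-, rose from 34.4 ± 7.80 to 49.2 ± 1.43 CPM and SLC1A4, a neutral amino acid carrier, from 29.6 ± 0.755 to 48.4 ± 3.40 CPM. SLC3A2, in the same list and named after its value was seen, was called lower (log2 fold change -0.23, edgeR adjusted p = 0.0461). System xc- as a whole is therefore not read as higher. CTH, which makes cysteine from cystathionine, fell from 16.8 ± 1.98 to 10.2 ± 0.682 CPM, the glutamine carrier gene SLC1A5 fell 1.26-fold and AHCY, which hydrolyses S-adenosylhomocysteine, had a log2 fold change of -0.27.

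Of the other glutathione enzymes, 3 were higher and 3 lower of 15 tested, beside the 41.1% called among all genes. GLO1 and HAGH, the glyoxalases that clear methylglyoxal with glutathione, rose 1.30-fold and 1.28-fold and the theta-class gene GSTT2B 1.32-fold. CHAC1, which breaks glutathione down, fell from 7.29 ± 4.84 to 2.02 ± 0.646 CPM, the prostaglandin E synthase gene PTGES from 6.48 ± 0.284 to 2.80 ± 0.917 CPM, and GSTCD fell 1.24-fold. CHAC1 varied widely in sgcon, at 9.28, 1.78 and 10.8 CPM, and sgcon replicate 2 lay within the sgGPR91 range.

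Other NADPH and pentose phosphate genes were higher at 6 and lower at 1 of 19 tested, beside the 41.1% called among all genes. ALDH1L2, a mitochondrial folate enzyme that makes NADPH, rose from 101.8 ± 4.62 to 148.9 ± 6.13 CPM, and FDX1, the ferredoxin gene, from 13.7 ± 1.89 to 19.8 ± 2.42 CPM. PGLS, the lactonase that acts before PGD in the oxidative branch, rose 1.26-fold. FDXR, which passes electrons from NADPH to ferredoxin, fell 1.78-fold.

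Of the other thioredoxin-fold and methionine sulfoxide reductase genes, 4 were higher and 3 lower of 19 tested, beside the 41.1% called among all genes. TXNIP, which binds and inhibits thioredoxin, rose 2.36-fold from 84.5 ± 18.6 to 200.9 ± 17.5 CPM, a larger fold difference than that of TXN. MSRA, which repairs oxidised methionine, rose from 1.40 ± 0.159 to 5.98 ± 0.396 CPM and TXNDC9 rose 1.33-fold. SESN1 and SESN3, sestrin genes, fell 1.37-fold and 1.22-fold and TXNL1 fell 1.25-fold.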

How the data were processed

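RNA was sequenced from 3 libraries titled sgcon and 3 titled sgGPR91. The authors deposited raw read counts, whole numbers for each gene. Their deposited FPKM values are these counts scaled by listed gene length and by the column total, as checked on 90322 values. The submitters' processing notes name HISAT2, Bowtie2 and RSEM and say neither their version nor their role. The genome build, annotation and strand setting are not given in the sources used here. Coordinates are printed as the table lists them. All 45 members were found in GENCODE 29 on GRCh38 with the same chromosome and strand and overlapping spans, 21 with an identical start.

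Counts were tested with edgeR 4.0.16 in R 4.3.3 by the quasi-likelihood test, after filterByExpr (minimum count 10, minimum total 15) and TMM scaling, with no covariate, and adjusted by Benjamini-Hochberg over all 12701 genes kept. The biological coefficient of variation was 7.56%. CPM values are TMM-scaled. The SE is the absolute log2 fold change over the square root of F. Library medians used log2(CPM + 0.5). Levels are compared between genes only by FPKM. These orders, sums and shares depend on the listed gene lengths, which were not checked against the transcripts expressed. The 3 planned ratios were tested by exact permutation with SciPy 1.17.1, with Benjamini-Hochberg adjustment over all 8 ratios computed. For the 5 added after the values were seen, no p-value is given. The code was run on simulated counts with 200 genes changed and 1 common dispersion. That setting differs from these data, where 41.1% of genes were called, so it does not check the calls given here. In the library with the lowest total, 3 reads are 0.424 CPM, a floor that covers counting error only. Of 19937 rows, 581 had no name and entered under their identifiers.

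Members called with a log2 fold change of at least 0.58 in size, NFE2L2, KEAP1, GCLC and any member in a 10 Mb neighbourhood with a median beyond 0.3 are given by library. From each related list, up to 3 called genes per direction with at least 5 CPM in the higher group are named. Some genes counted in these lists are not reported here by name. The members and lists were chosen with earlier results of these data known. Alternatives were DESeq2 1.42.0, RLE scaling, no filter, the replicate number as a block, limma 3.58.1 on log2(FPKM + 1) and log2(FPKM + 0.1), and leaving out each library.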

Additional observations from a re-analysis of the deposited data

How the results depend on the processing

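The counts of members and of genes called stayed within 1.5 times their value in each of the 13 alternatives. DESeq2 called 4514 genes in place of 5221. Under the 7 alternatives that kept all libraries, 17 or 18 members were higher and 2 lower; DESeq2, RLE scaling, no filter and the filtered limma fits each shared all 17. Leaving out 1 library gave 15 to 18 members higher, 2 to 3 lower, a median log2 fold change of 0.14 to 0.26 and 4108 to 5707 genes called. Calls lost were GLRX5, KEAP1, PRDX4 and TALDO1, as given above. Calls gained were GSS (with the block and in 2 omissions), GPX1, OSGIN1, MGST3 (lower, without sgcon replicate 3, adjusted p = 0.04389 by edgeR) and MGST1 (limma, no filter). Of the members not called, 7 changed sign when a library was left out: GSR ran from -0.0235 to 0.0544, GSTM4 from -0.0931 to 0.00894, TXN2 from -0.103 to 0.0679, PRDX3 from -0.0794 to 0.112, PRDX6 from -0.0360 to 0.0920, TKT from -0.0390 to 0.0856 and NFE2L2 from -0.0973 to 0.0388, so no direction is read for them; the cause was not tested. With the replicate number as a block, 18 members were higher, 2 lower and 5670 genes called. The labels do not say what the number pairs: same-numbered libraries deviated together with correlations of 0.146, 0.0169 and 0.0837, and 5 of 6 libraries correlated best with their own number. On leaving out a library, the log2 difference ran from 0.57 to 0.69 for GCLM to GCLC, from 0.25 to 0.45 for KEAP1 to NFE2L2 and from 0.04 to 0.18 for TXNRD1 to TXN, whose groups overlapped with all libraries in. GPX8, SRXN1 and SOD3 had at most 4 reads in any library, where no difference was detectable.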

Other observations

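Genes listed under selenocysteine incorporation, a process that GPX1, GPX3, TXNRD1 and TXNRD2 among the members need, were all called. Of the 7, 2 were higher and 5 lower. Among all genes 41.1% were called, and the median log2 fold change of this list was -0.32. SEPHS1 and SEPHS2, listed by their name as selenophosphate synthetase genes, rose by 0.27 and 0.26 on the log2 scale. PSTK, the kinase that prepares the transfer RNA, fell from 9.18 ± 0.785 to 3.44 ± 0.554 CPM, and TRNAU1AP and SECISBP2, which act in decoding, fell 1.33-fold and 1.31-fold. The other 2 that fell, SEPSECS and EEFSEC, had log2 fold changes of -0.24 and -0.32. Of the 4 selenoprotein members, GPX3 and TXNRD1 were higher and GPX1 and TXNRD2 were not called.

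Among genes that produce oxidants, 6 of 15 were tested, and MAOA, a mitochondrial amine oxidase that releases hydrogen peroxide, was the 1 called, falling from 11.3 ± 1.38 to 2.80 ± 1.18 CPM. The share called among all genes was 41.1%.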
